A study of Mus musculus with 2 samples.

Results

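Glycolysis and pentose phosphate genes were followed across the cell classes of mouse bone marrow. The 35 genes were chosen by symbol, as a list of the enzymes, sugar and lactate transporters and regulators of these pathways, out of 32286 features in the count matrices. Each symbol was found. Single hematopoietic cells of bone marrow were profiled in 2 libraries, 1 per genotype, by droplet capture and sequencing of transcript 3′ ends. The control genotype was Mx1Cre+/-;Rosa26+/+ and the other was Mx1Cre+/-;Rosa26LSL-MYC/LSL-MYC, called the MYC library here, and cells are called control or MYC cells by their library. Both groups carried 1 copy of Mx1-Cre, a Cre recombinase behind an interferon-inducible promoter that acts in blood-forming cells and in other interferon-responsive cells. LSL-MYC is a MYC transgene at the Rosa26 locus, kept silent by a stop cassette until Cre cuts it out. The labels give no Cre induction, age, number of animals or cell sorting. The series asked how expression in marrow cells changes after MYC is overexpressed in stem cells.

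Glycolysis splits glucose into pyruvate, and cells that keep little mitochondrial respiration, such as neutrophils and red cells, draw much of their ATP from it. The pentose phosphate pathway takes glucose 6-phosphate aside to make NADPH and ribose 5-phosphate, and neutrophils spend that NADPH on the oxidative burst. MYC is known to bind E-box sequences and to raise many glycolytic genes in other settings, which is background and not a result of these data.

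Unique molecular identifiers (UMIs) each stand for 1 captured transcript, whatever its length. They numbered 131884603 over 17073 barcodes for the control and 110012176 over 14496 for MYC. Filters left 14760 control cells (median 5321.5 UMIs) and 12645 MYC cells (median 6014 UMIs). The feature named MYC, whose sequence the labels do not give, drew 0 UMIs in kept control cells and 295 in kept MYC cells, 163 of them in mature neutrophils. The libraries shared 97 barcodes. Cells were clustered without any of the 35 genes, and clusters were named from marker genes, so each class name stands for cells that are like that type. There were 10 classes with at least 100 cells in each library. They ranged from 4594 control and 3520 MYC mature neutrophils to 187 and 147 basophils or mast cells. With 1 library per genotype there is no replicate, no test was run, and a difference between libraries cannot be told apart from a difference between genotypes. Levels are UMIs per 1000000 UMIs of a class and library (CPM). All intervals are 95% intervals for counting error only. A gene was tested in a class with at least 50 UMIs over both libraries. It was called higher or lower where its CPM ratio, MYC over control, reached 1.5-fold and the interval of the ratio left out 1.

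Among the promoters of these genes, those with the E-box CACGTG, the sequence MYC and its partner MAX bind, are shown first because the study raised MYC. RefSeq windows (build GRCm38.p6) from 250 bases before to 50 bases after each start matched 34 of the 35 genes, with 48 windows in all. The E-box lay in windows of 4 genes, Ldha, Pfkfb3, Pfkm and Slc16a1, which is 11.8% of these genes against 8.09% of all 27025 genes in the table. By window it lay in 8.33% of the windows of these genes and 7.15% of all windows. In each line below 60 bases are given 5′ to 3′ on the gene's strand, with the E-box in capitals.
Ldha, lactate dehydrogenase A, chr7:46845729-46845788, plus strand: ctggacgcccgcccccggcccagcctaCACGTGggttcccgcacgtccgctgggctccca
Pfkfb3, a phosphofructokinase regulator, chr2:11502111-11502170, minus strand: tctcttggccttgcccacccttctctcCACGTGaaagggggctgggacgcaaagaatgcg
Pfkm, muscle-type phosphofructokinase, chr15:98092426-98092485, plus strand: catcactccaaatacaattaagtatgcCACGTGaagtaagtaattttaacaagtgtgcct
Slc16a1, monocarboxylate transporter MCT1, chr3:104638437-104638496, plus strand: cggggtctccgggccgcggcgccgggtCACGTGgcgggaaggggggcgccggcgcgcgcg
Ldha held 2 E-boxes in its window, of which 1 is shown. Of these 4 genes Ldha was called only higher in the MYC library, in 4 classes, and Pfkfb3, Pfkm and Slc16a1 were called only lower, in 2 classes each.

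The shorter motif ACGTG, the core of the hypoxia response element and also part of every E-box, lay in windows of 18 of the 34 genes, 52.9% against 21.8% of all genes. Counted outside an E-box, it lay in 41.7% of the windows of these genes against 13.6% of all 32851 windows. Both motifs were searched on both strands, and a match describes letters only. A pair of examples with opposite behaviour in the cells is given, with the core in capitals, which in Hk3 reads ACGTG on the other strand.
Pgam1, phosphoglycerate mutase, chr19:41911730-41911789, plus strand: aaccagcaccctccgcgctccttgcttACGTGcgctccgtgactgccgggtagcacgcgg
Hk3, hexokinase 3, chr13:55021509-55021568, minus strand: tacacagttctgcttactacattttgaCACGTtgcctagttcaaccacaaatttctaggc
Pgam1 was called only higher, in 4 classes, and Hk3 only lower, in 3.

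Summed over the 35 genes, the level was higher in the MYC library in 10 of 10 classes. The ratio ran from 1.02 in immature neutrophils to 1.49 in T or NK cells. In the 3 neutrophil stages the direction depended on Gapdh and on the scaling. Without Gapdh the ratio was 0.971 in mature neutrophils, 0.938 in immature neutrophils and 0.9396 in granulocyte progenitors, and in the other 7 classes 1.10 to 1.36. With median-of-ratios scaling the ratio of the full sum in these 3 stages was 1.24, 1.19 and 1.26, and without Gapdh 1.14, 1.09 and 1.14. With Gapdh, but without the 20 most abundant genes in the total, the ratio in immature neutrophils was 0.993. With both Gapdh and those 20 genes left out, the ratio in erythroid cells also fell under 1, to 0.993. Mature neutrophils had the highest sum, 8671.7 CPM in control and 9182.3 CPM in MYC cells, and mature B cells the lowest, 1887.8 and 2320.7 CPM. Of 306 gene and class pairs tested, 43 (14.1%) were called higher and 25 (8.17%) lower, against 8.49% and 16.2% of the 85751 pairs of all genes. Only Aldoc, the brain-type aldolase, was too low to be tested in any class. Of the other 34 genes, 22 were tested in all 10 classes. Counting Aldoc, 7 genes were called nowhere, 15 only higher, 11 only lower, and Pgd and Slc2a3 both ways in different classes.

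The split of calls depends on how the libraries are scaled. With median-of-ratios scaling 67 pairs were higher and 11 lower, and over all genes 11490 and 7556 in place of 7276 and 13852. That scaling moves the median of all genes up by 0.02 to 0.29 in log2 by class. With the 20 most abundant genes of a class and the ribosomal RNA transcript Gm42418 left out of the denominator, 26 were higher and 32 lower, over all genes 5220 and 18374, and the all-gene median moved by -0.24 to 0.06. Shares within an enzyme family and a gene's place relative to the all-gene median do not move with such a factor. Transcript length moved with the ratios in all 10 classes: over 6359 to 11065 tested genes a class, Spearman's rho between log2 ratio and the longest protein-coding transcript ran from -0.55 to -0.34, as a description. The shortest genes, up to 1865 to 1947.5 bases, had medians of 0.11 to 0.42, and the longest, over 4521 to 4843 bases, had medians of -0.52 to -0.21. For this description genes were split at these lengths into 4 bins of equal size. Each ratio was therefore also set against the median of genes of like length, in 10 finer bins. On that scale 39 pairs were higher and 8 lower, over all genes 7017 and 6604, and 25 of the 43 higher and 8 of the 25 lower calls stayed past 1.5-fold.

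**Figure D1:**
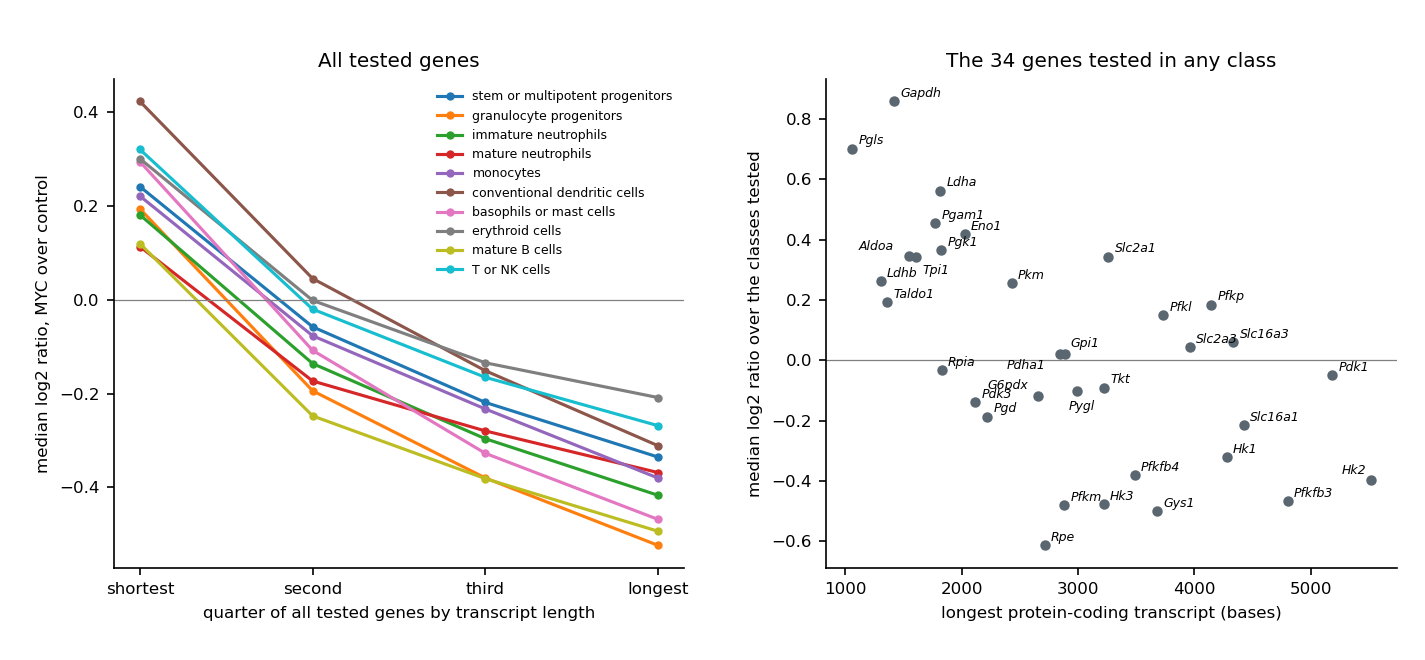
Left, the median log2 ratio (MYC over control, pseudocount 1 CPM) of all tested genes in 4 equal bins of transcript length, 1 line per cell class; right, the median log2 ratio over classes of each of the 34 tested genes against its longest protein-coding transcript in bases. The lines fall from 0.11 to 0.42 in the shortest bin to -0.52 to -0.21 in the longest, and Gapdh (1420 bases) and Pgls (1062 bases) stand among the short genes on the right.

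By class, the counts lay both above and below those of all genes. In mature neutrophils 1 of 33 tested genes was higher, against 7.11% of all genes, and 4 were lower, against 20.1%. With median-of-ratios scaling this split turned to 6 higher and 1 lower, over all genes 1224 and 1002 in place of 692 and 1957. In immature neutrophils 2 of 33 were higher, against 7.61%, and 2 lower, against 16.6%. In granulocyte progenitors 2 of 33 were higher, against 4.97%, and 8 lower, against 24.1%, so the lower calls stood at the share of all genes there. With median-of-ratios scaling 5 were higher and 3 lower, over all genes 1373 and 779 in place of 471 and 2285. With length-centring 1 was higher and 1 lower, over all genes 660 and 592. In monocytes 4 of 34 were higher, against 7.47%, and 4 lower, against 15.9%. In erythroid cells 8 of 32 were higher, against 15%, and 3 lower, against 13.1%. In T or NK cells 10 of 28 were higher, against 9.15%, and 0 lower, against 8.79%, but without the 20 most abundant genes 3 were higher and 1 lower. In mature B cells 3 of 24 were higher, against 5.82%, and 0 lower, against 18.5%. In conventional dendritic cells 6 of 28 were higher, against 15.1%, and 1 lower, against 14%, a split that turned to 2 higher and 6 lower without the 20 most abundant genes. Among stem or multipotent progenitors 3 of 33 were higher, against 5.79%, and 0 lower, against 10.8%. In basophils or mast cells 4 of 28 were higher, against 7.85%, and 3 lower, against 18%. Median-of-ratios scaling gave more higher calls in each class but erythroid and T or NK cells, where the count was the same.

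The median log2 ratio of the genes (pseudocount 1 CPM) lay at or above that of all genes in each of the 10 classes. It was 0.40 in T or NK cells against -0.06 for all genes, 0.21 in mature B cells against -0.28, and 0.17 in erythroid cells against -0.02. It was -0.17 in granulocyte progenitors against -0.26, a median that turned to 0.10 with median-of-ratios scaling and to 0.04 against genes of like length. In immature neutrophils the medians were the same to the second decimal, -0.19 and -0.19. By step of the pathway, all 50 pairs of the lower glycolytic enzymes stood above the median of all genes of their class, 19 were called higher and none lower. Of the 15 pairs of the phosphofructokinase regulators 13 stood below it. Transcripts of the first group are 1420 to 2432 bases long and those of the second 3488 to 4801 bases. Against genes of like length 48 of the 50 pairs were above 0, and 4 of the 15.

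**Figure D2:**
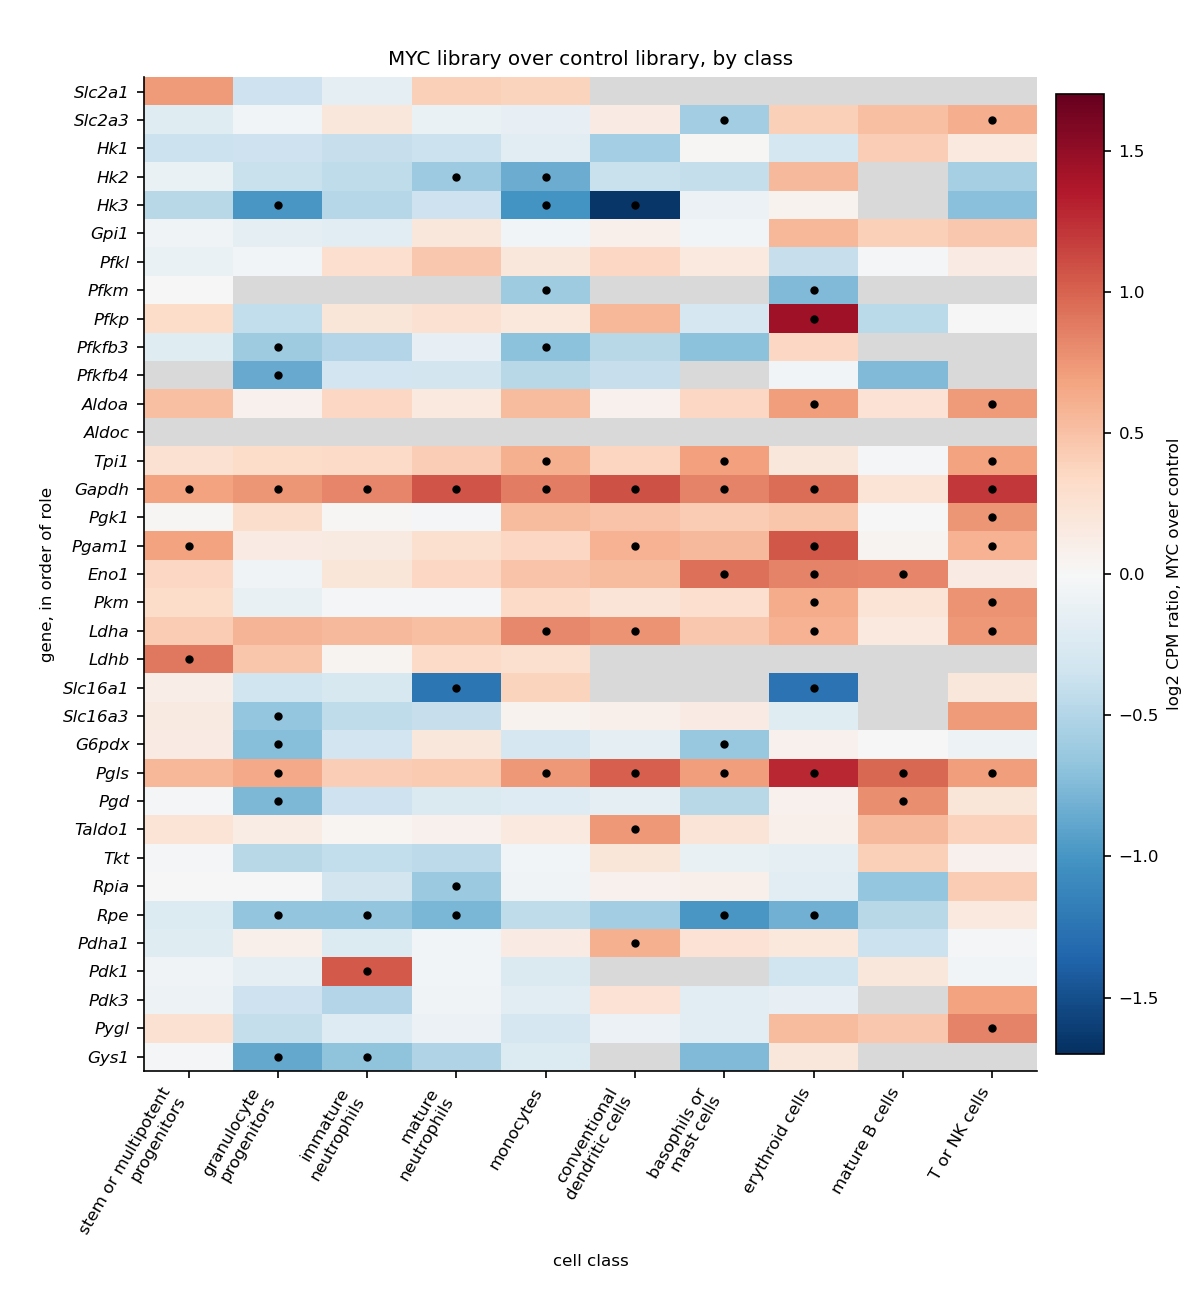
Log2 CPM ratio, MYC over control, of the 35 genes (vertical axis, in order of role) in the 10 cell classes (horizontal axis); red is higher and blue lower in the MYC library, dots mark the 68 calls, and grey marks pairs with under 50 UMIs. The row of Gapdh has dots in 9 classes and that of Pgls in 7, while Rpe is blue with dots in 5.

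Glucose enters through the transporters Slc2a1 (GLUT1) and Slc2a3 (GLUT3). Slc2a3 was highest in mature neutrophils, at 486 CPM in control and 449 in MYC cells, and made 97.3% and 96.1% of the UMIs of the pair there. In immature neutrophils it stood at 102 and 117 CPM, and in monocytes at 15.7 and 14.3 CPM, where it made only 63.1% and 54.5% of the pair. Slc2a3 was called higher in T or NK cells (log2 ratio 0.62) and lower in basophils or mast cells (log2 ratio -0.59), and neither call held in every alternative. Slc2a1 was low throughout and called nowhere: in mature neutrophils it had 13.7 and 18.1 CPM, in immature neutrophils 4.51 and 4.02 CPM and in monocytes 9.16 and 11.9 CPM. Its log2 ratio was 0.40 (0.17 to 0.63) in mature neutrophils and 0.38 (0.10 to 0.66) in monocytes, above 0 by more than counting error but under the 1.5-fold limit.

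Hexokinases trap glucose as glucose 6-phosphate, and which of them a class used was its own feature. Hk1, the broadly expressed form, made 87.7% of hexokinase UMIs in control erythroid cells and 82.7% in those of the MYC library. Hk2, an inducible form, made 56.8% and 51.1% in basophils or mast cells. Hk3, the form typical of myeloid cells, made 51.0% and 54.2% in mature neutrophils. In these classes the leading form was the same in both libraries. Hk3 was called lower in 3 classes. In granulocyte progenitors it had 265 CPM in control and 134 in MYC cells, a log2 ratio of -0.99 (-1.10 to -0.88), and its share of hexokinase UMIs was 58.1% (56.6 to 59.7) and 47.4% (45.2 to 49.7). In monocytes Hk3 had 94.7 and 47.0 CPM, a log2 ratio of -1.01 (-1.12 to -0.90), with values of -0.99 and -1.10 in the 2 monocyte clusters. In conventional dendritic cells, whose leading genes also held the macrophage markers Mrc1 and Axl, Hk3 had 39.1 and 12.5 CPM, from 68 and 21 UMIs. These 3 calls, at chr13:55005985-55021385 on the minus strand, stayed past 1.5-fold in every alternative, length-centring included. In immature neutrophils Hk3 had 188 and 135 CPM and in mature neutrophils 198 and 156 CPM, both under the limit.

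Hk2 was called lower in monocytes and mature neutrophils. In monocytes it had 138 CPM in control and 77.1 in MYC cells, a log2 ratio of -0.84 (-0.92 to -0.75), and both clusters showed it, at -0.94 and -0.78. In mature neutrophils it had 137 and 89.4 CPM, a log2 ratio of -0.61 (-0.70 to -0.53). That call rested on cluster 7, led by the gelatinase-granule genes Mmp8 and Mmp9, where the log2 ratio was -0.67 (-0.79 to -0.56); it was 0.02 (-0.36 to 0.38) in cluster 0, and averaged over clusters the gene was under the limit. Hk2 has the longest transcript of the list, 5513 bases, and neither of its calls stayed past 1.5-fold against genes of like length. In immature neutrophils it had 151 and 112 CPM. Hk1 was called nowhere.

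**Figure D3:**
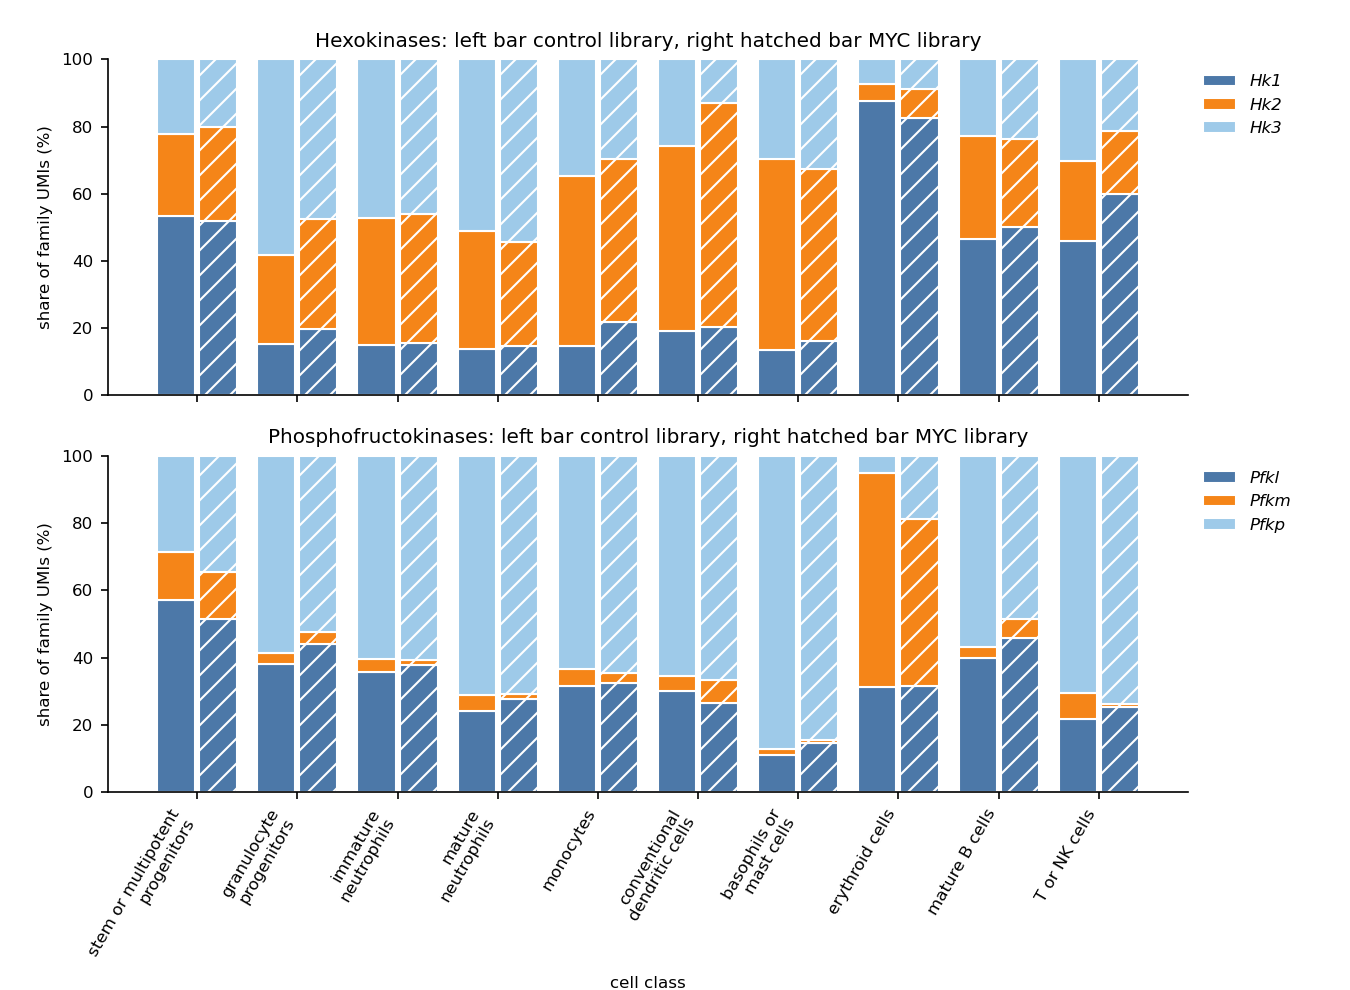
Stacked shares (percent of family UMIs) of the hexokinases Hk1, Hk2 and Hk3 (top) and the phosphofructokinases Pfkl, Pfkm and Pfkp (bottom) in 10 cell classes, control library left and MYC library right and hatched. Erythroid cells stand out with Hk1 at 87.7% and 82.7%, and with Pfkm at 63.6% and 49.9%.

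Of the enzymes that follow, Gpi1 turns glucose 6-phosphate into fructose 6-phosphate and was called nowhere, with 630 CPM in control and 720.3 in MYC cells in mature neutrophils. Phosphofructokinase commits the sugar to glycolysis, and its 3 forms divided the classes. Pfkp, the platelet form, made 87.1% and 84.5% of phosphofructokinase UMIs in basophils or mast cells. Pfkm, the muscle form, made 63.6% (61.1 to 66.0) in control erythroid cells but 49.9% (44.9 to 54.9) in those of the MYC library. Pfkl, the liver form, was called nowhere. In monocytes Pfkm was called lower, a call that stayed past 1.5-fold in only 2 of 14 alternatives. In erythroid cells Pfkm was called lower (log2 ratio -0.75), and Pfkp rose from 3.67 to 9.98 CPM, 81 and 75 UMIs, a log2 ratio of 1.44 (0.97 to 1.91). Averaged over erythroid clusters, the Pfkp value dropped to 0.46 and the Pfkm value was also under the limit. Cluster 12 was the largest erythroid cluster in the control (790 of 1454 cells) and cluster 14 in the MYC library (235 of 610 cells). In cluster 14 the median UMI count was 0.266 of the library's median. The regulators Pfkfb3 and Pfkfb4 make fructose 2,6-bisphosphate, the activator of phosphofructokinase, and their 3 calls were all lower. In granulocyte progenitors Pfkfb4 had 34.7 CPM in control and 19.1 in MYC cells, a log2 ratio of -0.86 (-1.17 to -0.56). In monocytes Pfkfb3 had 12.4 and 7.65 CPM, a log2 ratio of -0.70 (-0.98 to -0.42), and Pfkfb3 was also lower in granulocyte progenitors. None of the 3 stayed past 1.5-fold with median-of-ratios scaling.

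Aldoa, the aldolase that cleaves the 6-carbon sugar, and Tpi1, which interconverts the products, were called only higher. Aldoa was called in erythroid and T or NK cells. In T or NK cells it had 169.9 CPM in control and 279 in MYC cells, a log2 ratio of 0.72 (0.49 to 0.94). In monocytes Aldoa had 380.5 and 553 CPM, in immature neutrophils 404 and 514 CPM and in mature neutrophils 471 and 528 CPM, each higher by less than 1.5-fold. Tpi1 was called in monocytes, at 126 and 191 CPM with a log2 ratio of 0.60 (0.53 to 0.67), in T or NK cells, and in basophils or mast cells, where it had 106 and 171 CPM. In granulocyte progenitors Tpi1 had 184 and 229 CPM. None of these 5 calls stayed past 1.5-fold against genes of like length, and only that of Tpi1 in basophils or mast cells did so without the 20 most abundant genes. A second feature with the symbol Aldoa, of another identifier, held at most 4 UMIs in any class and library and was not used.

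Gapdh, which oxidises glyceraldehyde 3-phosphate and makes NADH, was called in more classes than any other gene of the list. It lies at chr6:125161715-125166467 on the minus strand, and was higher in 9 of 10 classes. In mature neutrophils it had 677 CPM in control and 1419 in MYC cells, a log2 ratio of 1.07 (1.04 to 1.10). The same direction was seen in each of the 4 mature neutrophil clusters, with log2 ratios of 0.93 to 1.29, although the clusters themselves were unevenly filled: cluster 1 held 150 control and 1671 MYC cells, and cluster 2 held 1488 and 181. In immature neutrophils Gapdh had 719.9 and 1278 CPM, a log2 ratio of 0.83 (0.80 to 0.86), and in granulocyte progenitors 1003 and 1682 CPM, a log2 ratio of 0.75 (0.71 to 0.79). Gapdh was thus called in every neutrophil stage.

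In monocytes Gapdh had 856 and 1568 CPM, a log2 ratio of 0.87 (0.85 to 0.90). In T or NK cells it had 339 and 782 CPM, a log2 ratio of 1.21 (1.06 to 1.35). In conventional dendritic cells it had 376 and 799.8 CPM, in stem or multipotent progenitors 625 and 999.8 CPM and in basophils or mast cells 715 and 1284 CPM. Mature B cells were the class without a call, at 275 and 324 CPM, a log2 ratio of 0.23 (0.02 to 0.45). In erythroid cells the class as a whole had 298 and 578 CPM, a log2 ratio of 0.96 (0.90 to 1.01), but cluster 14 differed from the others, with a log2 ratio of -0.15 (-0.35 to 0.06). Against genes of like length the log2 ratio of Gapdh ranged from 0.20 to 0.99 over classes, and with the 20 most abundant genes taken out from 0.11 to 1.13, so its direction was the same in every class under both, although the calls in granulocyte progenitors, stem or multipotent progenitors and basophils or mast cells ended with length-centring, and that in stem or multipotent progenitors also without the 20 most abundant genes. Gapdh has many processed copies in the mouse genome, as has Eno1, and reads that match a copy equally may be lost or split, so levels of these 2 genes are uncertain to that extent. The retrogene Eno1b, a separate feature, held 78 and 64 UMIs in mature neutrophils.

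The other lower glycolytic enzymes were called in fewer classes than Gapdh. Pgk1, which makes ATP from 1,3-bisphosphoglycerate, was called in T or NK cells alone, at 100.4 CPM in control and 169 in MYC cells, a log2 ratio of 0.75 (0.45 to 1.04), which ended without the 20 most abundant genes. In monocytes Pgk1 had 196 and 283 CPM, and in mature neutrophils 302 and 294 CPM. Pgam1, which moves the phosphate of 3-phosphoglycerate, was called in 4 classes. In stem or multipotent progenitors it had 164 and 263 CPM, a log2 ratio of 0.68 (0.54 to 0.83), a call that ended in 4 of 12 alternatives. In erythroid cells it had 21.6 and 44.8 CPM, a log2 ratio of 1.05 (0.85 to 1.26). Erythroid clusters were split for Pgam1, with a log2 ratio of -0.42 (-0.80 to -0.05) in cluster 14 and 0.85 (0.54 to 1.16) in cluster 26. The Pgam1 call in T or NK cells stayed past 1.5-fold in only 4 of 13 alternatives, and that in conventional dendritic cells in 4 of 12. Eno1, enolase, was called in 3 classes. In basophils or mast cells it had 113 and 215 CPM, a log2 ratio of 0.93 (0.67 to 1.20), and in mature B cells 56.5 and 101 CPM, a log2 ratio of 0.83 (0.41 to 1.24), and both calls held in every alternative. In mature neutrophils Eno1 had 154 and 197 CPM, in immature neutrophils 187 and 215 CPM and in monocytes 182 and 254 CPM. Pkm, pyruvate kinase, was called in erythroid and T or NK cells. In T or NK cells it had 201 and 343 CPM, a log2 ratio of 0.77 (0.56 to 0.98), which ended as a mean over cells and with doublets kept. The erythroid call of Pkm ended in 6 of 14 alternatives. In the neutrophil stages Pkm differed little, with 686 and 679 CPM in mature and 567 and 560.2 CPM in immature neutrophils, and in monocytes it had 489 and 615 CPM.

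**Figure D4:**
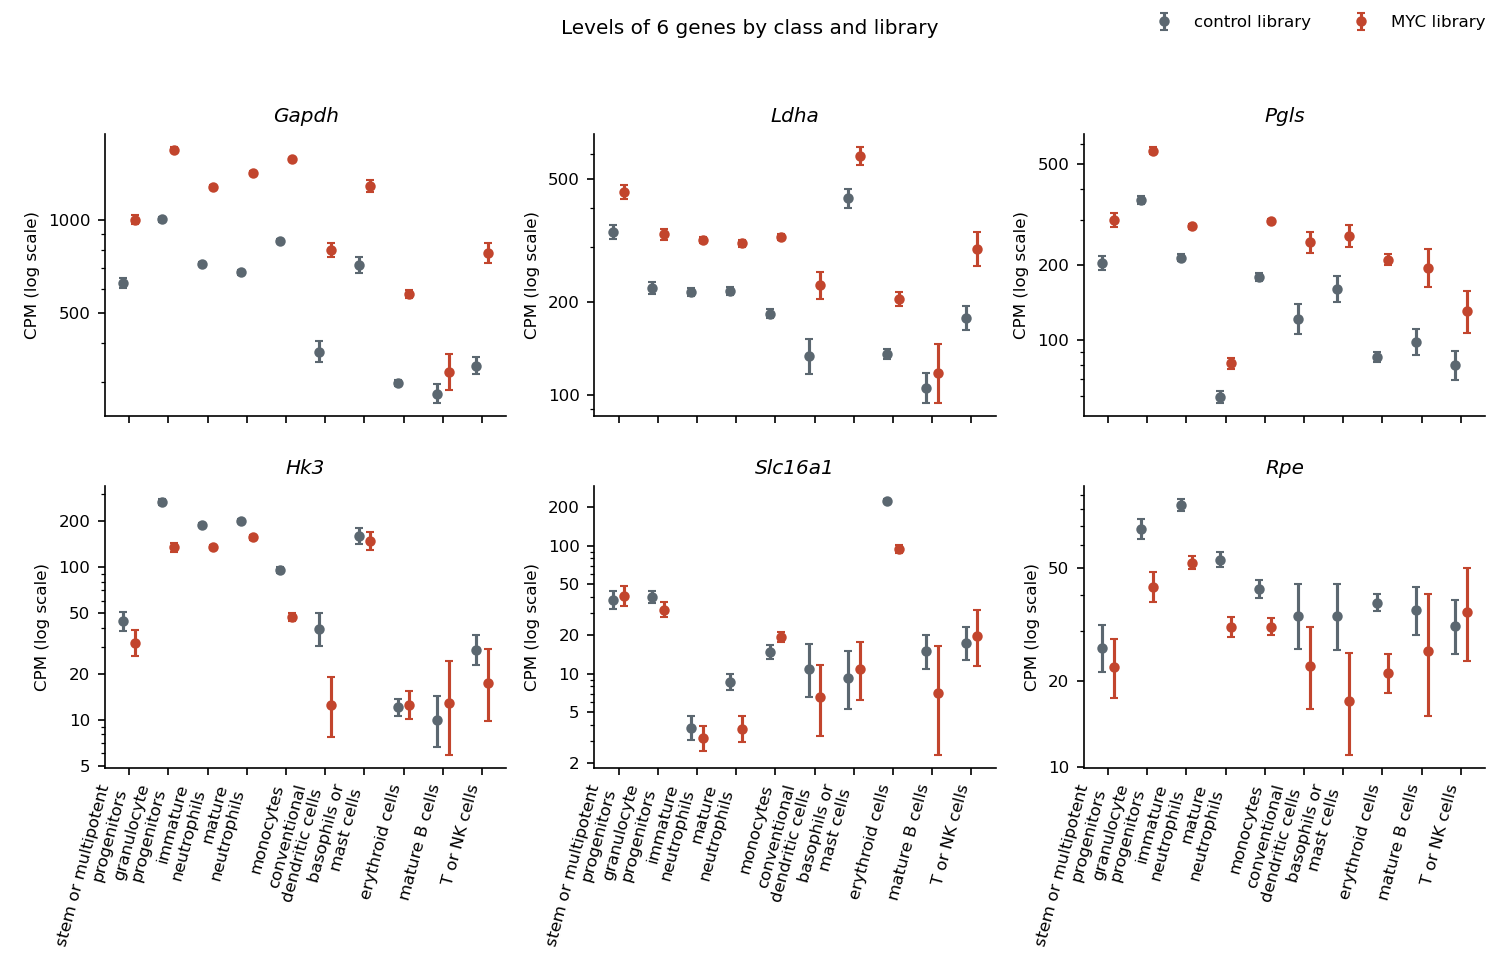
CPM (log scale) of Gapdh, Ldha, Pgls, Hk3, Slc16a1 and Rpe in the 10 cell classes, control library grey and MYC library red, with bars for the 95% Poisson interval of the count. Gapdh in mature neutrophils goes from 677 to 1419 CPM and Slc16a1 in erythroid cells from 225 to 94.3 CPM.

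Lactate dehydrogenase turns pyruvate into lactate and restores NAD+. Ldha, the form of glycolytic tissue, lies at chr7:46841475-46855627 on the plus strand and carries the E-box printed above. It was higher in the MYC library in 10 of 10 classes on the log2 scale and was called in 4. In monocytes it had 183 CPM in control and 323 in MYC cells, a log2 ratio of 0.82 (0.76 to 0.88), and this call held in every alternative. In conventional dendritic cells it had 133 and 226 CPM, a log2 ratio of 0.77 (0.53 to 1.01), and in T or NK cells 178 and 297 CPM, a log2 ratio of 0.74 (0.52 to 0.96). The calls in these 2 classes ended without the 20 most abundant genes. The neutrophil stages lay just below the limit: granulocyte progenitors had 221 and 330.2 CPM, immature neutrophils 215 and 316 CPM and mature neutrophils 216 and 308 CPM. Erythroid cells were also called (log2 ratio 0.59), but cluster by cluster the value was 2.76 in cluster 6 from 16 and 31 UMIs and 0.00 to 0.22 in the other 3. The erythroid call of Ldha stayed past 1.5-fold in 9 of 14 alternatives. Among the settings that ended it were length-centring and leaving out the 20 most abundant genes. Ldhb, the form of oxidative tissue, made 17.5% and 16.4% of lactate dehydrogenase UMIs in granulocyte progenitors, 11.7% and 8.6% in immature neutrophils, 3.5% and 4.8% in stem or multipotent progenitors and 0.9% and 0.8% in mature neutrophils. In stem or multipotent progenitors Ldhb had 12.2 and 22.6 CPM, 52 and 74 UMIs, a log2 ratio of 0.89 (0.36 to 1.43), which held in every alternative.

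The lactate transporters were called only lower. Slc16a1 made 96.5% and 93.0% of the UMIs of the pair in erythroid cells, and 96.0% in control B progenitors. Slc16a3 (MCT4), the exporter of glycolytic cells, made 96.4% and 97.9% in mature neutrophils. In erythroid cells Slc16a1 had 225 CPM in control and 94.3 in MYC cells, a log2 ratio of -1.26 (-1.37 to -1.14). It lies at chr3:104638668-104658462 on the plus strand. Its log2 ratio was -1.57 in cluster 6, -1.14 in cluster 12 and -0.90 in cluster 26, and -0.18 (-0.68 to 0.32) in cluster 14. In mature neutrophils Slc16a1 was rare, 8.67 and 3.72 CPM from 181 and 71 UMIs, a log2 ratio of -1.22 (-1.64 to -0.82). Both Slc16a1 calls held in every alternative, but none of these addressed RNA of erythroid cells caught with neutrophils. Erythroid cells made 9.85% of control and 4.82% of MYC cells, and over all kept cells Slc16a1 had 56.9 and 18.4 CPM. The part of such RNA in the mature neutrophil value was not tested. Genes of cell division, whose share differs between erythroid stages, summed to 8180.2 CPM in control erythroid cells and 5669.8 CPM in those of the MYC library, and their part in the Slc16a1 difference was not tested. Slc16a3 was called lower in granulocyte progenitors (log2 ratio -0.66), though not with median-of-ratios scaling, and in no other class. In mature neutrophils Slc16a3 had 232 and 177 CPM.

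The oxidative arm of the pentose phosphate pathway makes NADPH in 2 of its 3 steps, and its genes did not move together. G6pdx, the first and rate-limiting enzyme, was called lower in granulocyte progenitors, with 81.8 CPM in control and 49.7 in MYC cells and a log2 ratio of -0.72 (-0.91 to -0.53), and in basophils or mast cells, with 64.8 and 41.5 CPM. Neither call stayed past 1.5-fold with median-of-ratios scaling or against genes of like length. In mature neutrophils G6pdx had 223 and 254 CPM, in immature neutrophils 224 and 178 CPM and in monocytes 127 and 104 CPM, none of them past the limit. Pgls, which opens the lactone ring in the middle step, was called higher in 7 of 10 classes. It is at chr8:71592176-71601092 on the plus strand and has the shortest transcript of the list, 1062 bases.

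In erythroid cells Pgls had 85.5 CPM in control and 209 in MYC cells, a log2 ratio of 1.29 (1.19 to 1.38). In conventional dendritic cells it had 121 and 245 CPM, a log2 ratio of 1.01 (0.77 to 1.26), and in mature B cells 98.8 and 194 CPM, a log2 ratio of 0.98 (0.67 to 1.28). Against genes of like length 2 of the 7 calls, erythroid and mature B cells, stayed past 1.5-fold, at 0.89 and 0.65. Within erythroid cluster 14 the log2 ratio of Pgls was -0.06 (-0.45 to 0.33). Pgd, the last enzyme of the oxidative arm, was called in opposite directions: in granulocyte progenitors it had 316 and 187 CPM, a log2 ratio of -0.76 (-0.86 to -0.66), and in mature B cells 39.5 and 68.1 CPM from 116 and 48 UMIs, a log2 ratio of 0.79 (0.27 to 1.28). The mature B cell call ended when doublets were kept and as a mean over cells, and that in granulocyte progenitors with median-of-ratios scaling and with length-centring.

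The non-oxidative arm shuffles sugars between ribose 5-phosphate and glycolysis. Tkt, transketolase, was the most abundant gene of the list in control immature neutrophils and was called nowhere: it had 1181 CPM in control and 883 in MYC cells there, 930.3 and 682 CPM in mature neutrophils, 942 and 682 CPM in granulocyte progenitors and 493 and 475 CPM in monocytes. Its log2 ratio was between -0.47 and -0.42 in the 3 neutrophil stages, lower by more than counting error, but -0.18 to -0.12 against genes of like length. Taldo1, transaldolase, was called only in conventional dendritic cells, at 293 and 487 CPM, a log2 ratio of 0.74 (0.57 to 0.90), which ended with length-centring and without the 20 most abundant genes. Taldo1 had 1096 and 1148 CPM in mature neutrophils. Rpe, which makes xylulose 5-phosphate, was called lower in 5 of 10 classes. In immature neutrophils Rpe (chr1:66700831-66719805, plus strand) had 83.0 and 52.1 CPM, a log2 ratio of -0.67 (-0.77 to -0.57), with -0.63, -0.67 and -0.70 in its 3 clusters, but under the limit with median-of-ratios scaling and with length-centring. In basophils or mast cells Rpe had 33.8 and 17.0 CPM from 58 and 25 UMIs, a log2 ratio of -0.99 (-1.73 to -0.29), the only Rpe call that held in every alternative. In mature neutrophils the Rpe call was not stable. The class value was -0.78 (-0.92 to -0.63), but by cluster the log2 ratio was 0.37, 0.56, -0.78 and -0.89, the last in cluster 7 from 864 and 414 UMIs. With cells under 5% mitochondrial UMIs the class value was 0.24, but the class then left out an unnamed cluster of 1718 control and 167 MYC cells. Rpia, which makes ribose 5-phosphate, was called lower in mature neutrophils alone, at 23.2 and 15.02 CPM, a log2 ratio of -0.63 (-0.84 to -0.41), and the call ended in 9 of 14 alternatives.

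At the exits of the pathway 4 of 5 genes were called, in 1 or 2 classes each. Pdha1, the catalytic subunit of pyruvate dehydrogenase, was called in conventional dendritic cells, at 42.6 and 64.7 CPM, a log2 ratio of 0.60 (0.17 to 1.05), which ended without the 20 most abundant genes. Pdk1, a kinase that turns that enzyme off, was called in immature neutrophils, at 1.44 and 2.97 CPM from 32 and 77 UMIs, a log2 ratio of 1.04 (0.43 to 1.69), a call that ended with a pseudocount of 5 CPM, as a mean over cells and with a doublet score limit of 0.25. Pdk3, of the same family, was called nowhere. Gys1, glycogen synthase, was called lower in granulocyte progenitors, with 66.7 CPM in control and 36.6 in MYC cells and a log2 ratio of -0.87 (-1.09 to -0.65), and in immature neutrophils, with 95.8 and 59.5 CPM. Both Gys1 calls ended with median-of-ratios scaling and with length-centring. Pygl, glycogen phosphorylase, was highest in mature neutrophils, with 888 and 828 CPM, and was called higher in T or NK cells, with 43.5 and 77.98 CPM.

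Neutrophil markers were higher in the MYC library in T or NK, erythroid, mature B and conventional dendritic cells. S100a8 and S100a9, transcripts of neutrophils, stood in T or NK cells at 5.89% of their neutrophil level for control and 8.69% for MYC cells, in erythroid cells at 3.67% and 6.26%, in mature B cells at 2.25% and 5.30%, and in conventional dendritic cells at 3.46% and 4.30%. At those shares neutrophil RNA would give 37.9 of the 43.5 CPM of Pygl in control T or NK cells and 48.3 of 77.98 CPM in the MYC library, and 41.2 of 339 and 116 of 782 CPM of Gapdh. For Pkm in erythroid cells it would give 22.9 of 40.0 and 38.2 of 62.1 CPM. The summed level of S100a8, S100a9, Camp, Ngp, Ltf and Lcn2 did not rise alike in other classes. It was 23577 CPM in control and 19462 in MYC basophils or mast cells, and 8895 and 6945 CPM in stem or multipotent progenitors. In granulocyte progenitors it was 75245 and 58725.5 CPM, and in monocytes 12770 and 13039 CPM. Gapdh was called higher in these classes too. Division genes also differed between libraries: they summed to 1196 and 449.9 CPM in mature B cells, 1141 and 2162 CPM in conventional dendritic cells and 2738 and 1893 CPM in stem or multipotent progenitors. The part of neutrophil RNA or of division in these calls was not tested. The Pygl value in T or NK cells turned to -0.11 when doublets were kept.

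Along the neutrophil lineage 27 of 34 genes with at least 50 UMIs (79.4%) had the same pattern of levels in both libraries, close to the 80.7% of 11716 such features. From granulocyte progenitors through immature to mature neutrophils 8 genes (23.5%) were higher at each step in both libraries and 9 (26.5%) lower at each step, against 16.7% and 40.7% of all features. The genes higher at each step included the glucose transporter Slc2a3, the glycogen phosphorylase Pygl and the lactate exporter Slc16a3. Slc2a3 went from 17.6 through 102 to 486 CPM in the control and from 17.2 through 117 to 449 CPM in the MYC library. Pygl went from 192 through 413 to 888 CPM in the control, Slc16a3 from 30.8 through 73.0 to 232 CPM, Pfkfb4 from 34.7 through 72.5 to 133 CPM and Taldo1 from 450.4 through 553 to 1096 CPM. Pgd, Pgk1 and Pkm were the other 3. The falling genes included Pgls, from 362 through 213 to 59.5 CPM in the control and from 567 through 284 to 81.1 CPM in the MYC library, and Ldhb, from 46.8 through 28.7 to 1.92 CPM in the control. Tpi1, Rpia, Pfkl, Hk1, Pgam1, Eno1 and Pdha1 also fell at each step in both libraries. The control ratio of mature neutrophils to granulocyte progenitors was 27.5 for Slc2a3 and 0.0409 for Ldhb, and in the MYC library 26.2 and 0.0371. Gapdh fell at each step in the control but not in the MYC library, where it was 1682, 1278 and 1419 CPM.

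**Figure D5:**
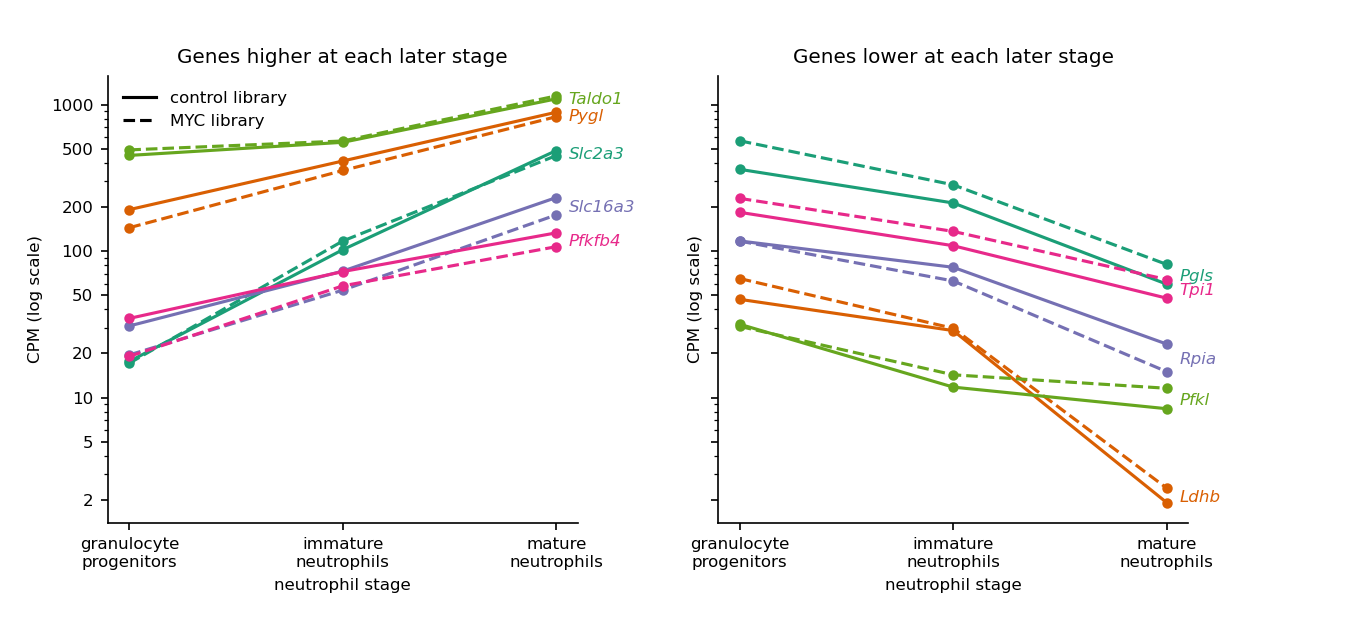
CPM (log scale) of 5 genes that rose (left) and 5 that fell (right) at each step from granulocyte progenitors to mature neutrophils, solid lines for the control and dashed lines for the MYC library. The lines of the libraries run side by side, with Slc2a3 climbing from 17.6 to 486 CPM and Ldhb falling from 46.8 to 1.92 CPM in the control.

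The class with the highest level was the same in both libraries for 27 of the 35 genes (77.1%), against 63.3% of 13630 features with at least 50 UMIs. Mature neutrophils were highest for 8 genes in control and 12 in MYC cells, and granulocyte progenitors for 11 and 8. Erythroid cells were highest for 3 genes in each library.

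Outside the list, 54 other genes of the same pathways gave 252 tested pairs, 28 higher (11.1%) and 47 lower (18.7%), close to the 8.49% and 16.2% of all genes. Mpc1, a subunit of the carrier that brings pyruvate into mitochondria, was called higher in 8 of 10 classes, with log2 ratios of 0.48 to 1.17 over all 10 (pseudocount 1 CPM) and of 0.10 to 0.84 against genes of like length. Its partner Mpc2 was called higher in 5, of which none stayed past 1.5-fold against genes of like length. Of the Mpc1 calls only that in mature B cells did. In mature B cells Mpc1 had 40.5 CPM in control and 92.3 in MYC cells. Adpgk, a glucokinase that uses ADP, was called lower in 4 classes, and had 157 and 56.3 CPM in granulocyte progenitors, a log2 ratio of -1.48 (-1.65 to -1.32). Phkb, a subunit of phosphorylase kinase, was called lower in 6 classes, with 79.3 and 36.3 CPM in granulocyte progenitors. Against genes of like length 2 of the 6 stayed past 1.5-fold. Slc16a7 (MCT2), a further lactate and pyruvate carrier, was called lower in 3 classes, of which only immature neutrophils stayed past 1.5-fold on that scale. It had 5.01 and 1.20 CPM there, a log2 ratio of -2.06 (-2.69 to -1.48). Emb, embigin, which helps such carriers to the membrane, was higher in immature neutrophils, from 36.3 to 69.7 CPM.

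Across the 14 alternatives 19 of the 68 calls stayed past 1.5-fold in each one that could be computed, and 27 did so if length-centring is left aside. Besides those named above, calls of Gapdh in 6 classes, and of Pgls in erythroid and mature B cells, were among the 19.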

How the data were processed

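Count matrices of 2 libraries were used, 1 per genotype, as the authors deposited them: raw UMI counts, whole numbers for each gene and barcode, from Cell Ranger 6.0.0, per the file headers. Per the submitters' processing notes, Cell Ranger and Seurat were used with GRCm38 (mm10). The labels name a 3′ kit. Gene positions and transcript lengths came from the GENCODE annotation of GRCm38, which matched 32158 of 32286 features (99.6%).

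Barcodes with at least 500 UMIs, at least 200 genes and under 10% mitochondrial UMIs were kept; the mitochondrial limit removed 1609 control and 1600 MYC barcodes. Scrublet in scanpy 1.11.5 marked 701 control barcodes (4.53%) and 251 MYC barcodes (1.95%) as doublets, below the expected 13.7% and 11.6%, so doublets may remain. Cells were clustered with Leiden (leidenalg 0.10.2, resolution 1, 2000 variable genes, 30 components, 15 neighbours, seed 0) without the genes described, other genes of the pathways, Myc, mitochondrial, ribosomal, immunoglobulin or T cell receptor genes. Classes were named from markers of 20 types, at least 3 detected in 10% of cells. Cluster 7 scored highest for immature neutrophils but was led by Mmp8 and Mmp9 and was counted as mature. Clusters whose median UMI count was under 0.2 of the library's, a limit set after the data were seen, and others without a name (2543 and 2707 cells) and classes under 100 cells in a library were left out of comparisons.

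UMIs were summed per class and library and divided by the class total per 1000000. Intervals are exact Poisson for levels, exact conditional binomial for ratios and Clopper-Pearson for shares (scipy 1.17.1), at 95%. Medians over genes and values under other settings used a pseudocount of 1 CPM; log2 ratios with an interval used none. The calculation was tested on simulated data. Full values are given for at most 6 called genes a class, those with the largest ratio, for 13 listed genes in neutrophils and monocytes, and for at most 4 other pathway genes a class; promoter examples, cluster values and neutrophil-stage genes were chosen after their values were seen. The genes and lists were chosen with earlier results of these data known. Alternatives were other scalings, pseudocounts, filters, clusterings and doublet settings, and, added after seeing the data, length-centring in 10 bins and leaving out shared barcodes or clusters over 80% of 1 library.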

Additional observations from a re-analysis of the deposited data

Results flagged for a closer look

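Pgd and Slc2a3 were called in opposite directions in different classes. The log2 ratio of Pgd, MYC over control, was -0.76 in granulocyte progenitors and 0.79 in mature B cells. The log2 ratio of Slc2a3 was 0.62 in T or NK cells and -0.59 in basophils or mast cells. With 1 library per genotype, the difference between classes was not tested for either gene.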

How the results depend on the processing

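Among the values of called genes under other settings, 711 moved by less than their counting interval, 186 moved by more and 2 changed sign. Rpe in mature neutrophils was 0.24 with cells under 5% mitochondrial UMIs, and Pygl in T or NK cells was -0.11 with doublets kept; the cause was not tested. The median of the genes in granulocyte progenitors changed sign to 0.10 with median-of-ratios scaling and to 0.0429 against genes of like length. The median was 0.49 in mature B cells with median-of-ratios scaling, and changed sign to -0.0926 in stem or multipotent progenitors without the 20 most abundant genes. The ratio of the summed level fell under 1 without Gapdh, to 0.971 in mature neutrophils, 0.938 in immature neutrophils and 0.9396 in granulocyte progenitors. It was 0.993 in immature neutrophils without the 20 most abundant genes; settings for the sum were chosen after seeing the data. With both changes it was 0.914 in immature neutrophils, 0.909 in granulocyte progenitors and 0.993 in erythroid cells. The other 147 medians moved by less than their interval. Even so 19 of the 151 had the opposite sign to the value reported, in each class but T or NK and mature B cells. Of the ratios of the summed level 39 moved by more than their counting interval, 7 fell under 1 and 4 did neither, and of the shares within enzyme families 118 moved by more than their interval and 497 by less.

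Of the 68 calls, 35 were no longer past 1.5-fold with length-centring, 15 when cells were averaged, 16 after median-of-ratios scaling, and 19 when the 20 most abundant genes were taken out of the total. Stem or multipotent progenitors and conventional dendritic cells were not separate classes at Leiden resolution 0.5, and mature B cells had under 100 cells in the MYC library under 5% mitochondrial UMIs, so these gave no value. No paired analysis was possible because the labels give no replicate numbers and there was 1 library per genotype. Depth limits genes such as Slc2a1 and Pdk1, with few UMIs in most classes.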

Other observations

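Classes with under 100 cells in a library were not compared, and their values are given as they stand. Plasmacytoid dendritic cells (273 control and 73 MYC cells) had 308 CPM of Gapdh in control and 809 in MYC cells, and 396 and 908 CPM of Pgls. Plasma cells (251 and 87 cells) had 179 and 276 CPM of Gapdh and 56.5 and 131 CPM of Pgls. Nonclassical monocytes (133 and 71 cells) had 332 and 666 CPM of Gapdh, and megakaryocytes (59 and 60 cells) had 523 and 1433 CPM. Macrophages were found almost only in the MYC library, 634 cells against 21, where Gapdh stood at 663 CPM and Hk2 made 75.6% (71.5 to 79.4) of hexokinase UMIs.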
